A study of Mus musculus with 8 samples.

Results

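The 7 cyclin-dependent kinase (CDK) inhibitor genes of the mouse, Cdkn1a, Cdkn1b, Cdkn1c, Cdkn2a, Cdkn2b, Cdkn2c and Cdkn2d, were taken by symbol from the 24421 gene symbols measured in macrophages, and all 7 passed the filter on low counts, which kept 13821 genes. The family was selected on a measured value: in these libraries Cdkn1c was lower in LysM-DKO than in WT. The levels of Cdkn1c in these 2 groups are therefore a description, and so is its difference between LysM-DKO and ABCG1KO, which uses the same LysM-DKO libraries. The other 6 members were listed by family, not by value.

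The 8 RNA libraries came from primary mouse macrophages, 3 of wild-type mice (WT), 3 of mice labelled LysM-DKO and 2 of mice labelled ABCG1KO, all on a normal diet. The labels' LysM-DKO was taken to be the Epsin-DKO of the design text, and LysM is the usual name of the lysozyme promoter (Lyz2) that drives gene deletion in myeloid cells. ABCG1 is a membrane transporter for cholesterol efflux. The alleles, the Cre line, whether ABCG1 was lost in all cells, the sex and age of the mice and the tissue of origin were not given in the sources used here, and nothing in the labels says that replicates came from separate animals, so p-values measure the spread between these libraries.

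CDK inhibitors bind cyclin-dependent kinases and hold the cell cycle back. The Cip/Kip proteins, p21 (Cdkn1a), p27 (Cdkn1b) and p57 (Cdkn1c), bind complexes of cyclins with several CDKs, whereas the INK4 proteins, p16 and p15 (Cdkn2a, Cdkn2b), p18 (Cdkn2c) and p19 (Cdkn2d), bind CDK4 and CDK6 and keep the retinoblastoma protein active. Cdkn1c is an imprinted gene that is expressed mainly from the maternal chromosome, in a domain where the noncoding RNA Kcnq1ot1 is transcribed from the paternal chromosome and represses neighbouring genes.

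RefSeq promoter windows (GRCm38.p6) were matched for 6 of the 7 members: Cdkn1a, Cdkn1b, Cdkn2a, Cdkn2b, Cdkn2c and Cdkn2d. The windows hold 250 bases before to 50 bases after the start of transcription, and only bases before the annotated gene are printed for the outermost starts. The sequences of Cdkn1a and Cdkn2a are shown because the first is the classical p53 target of the family, and because the second gene has separate starts for 2 different proteins, whose reads the deposited counts add up. Capitals mark a match to a palindromic p53 motif in Cdkn1a, which is ACATGT, then any 4 bases, then ACATGT again, and to the E2F motif TTTCCCGC, searched on both strands, in Cdkn2a.
Cdkn1a, upstream start, chr17:29090729-29090975, plus strand: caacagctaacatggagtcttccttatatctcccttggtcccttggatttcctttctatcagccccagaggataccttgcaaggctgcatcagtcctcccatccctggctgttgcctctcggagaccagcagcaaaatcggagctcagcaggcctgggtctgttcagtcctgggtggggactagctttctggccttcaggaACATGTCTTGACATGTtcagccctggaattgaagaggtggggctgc
Cdkn2a, outer start (Arf transcript), chr4:89294654-89294869, minus strand: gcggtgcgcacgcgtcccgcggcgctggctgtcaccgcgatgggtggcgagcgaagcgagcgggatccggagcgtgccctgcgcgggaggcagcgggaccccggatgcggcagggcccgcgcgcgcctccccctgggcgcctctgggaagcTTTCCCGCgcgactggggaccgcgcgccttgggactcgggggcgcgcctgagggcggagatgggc
Cdkn2a, inner start (p16 transcript), chr4:89282193-89282442, minus strand: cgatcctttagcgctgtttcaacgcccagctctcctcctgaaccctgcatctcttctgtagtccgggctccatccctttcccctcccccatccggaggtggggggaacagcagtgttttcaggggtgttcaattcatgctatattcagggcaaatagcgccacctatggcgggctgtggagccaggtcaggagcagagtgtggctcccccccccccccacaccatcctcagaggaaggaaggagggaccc
The p53 motif began 49 bases before the upstream start of Cdkn1a, and it occurred in 4 of 32851 mouse windows (0.0122%), in no window of another member. Only this fixed form was searched, so its absence does not show that the other members lack p53 sites. Cdkn1c had no window to search. The E2F motif began 99 bases before the outer start of Cdkn2a and occurred in 351 of 32851 windows (1.07%), and these letters are not in the window of the inner start. A match is a description of the sequence, and no binding was measured here.

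The library depth was 29567615 to 41888516 counts in genes. Epn1 measured 191 to 230 CPM (counts per 1000000 counts in genes, with library sizes scaled by TMM factors) in WT and 155 to 183 in LysM-DKO, and Epn2 4.97 to 8.86 and 5.67 to 13.2. The deleted exons are not given, so these gene-level counts do not check the deletion. Lyz2, the source of the LysM promoter, measured 13000 to 15710 CPM in WT, 6177 to 8105 in LysM-DKO, and 14410 and 11240 in ABCG1KO. Abcg1 measured 345 to 405 CPM in WT and 60.4 and 73.4 in ABCG1KO. The ABCG1KO libraries stood apart from the other 6: 13.8% and 10.2% of their reads lay outside genes, against 4.27% to 6.07% elsewhere, and 6.93% and 6.74% mapped to several loci, against 2.65% to 3.01%. Xist was at 0 and Ddx3y, a Y-linked gene, at 92.6 to 94.8 CPM in both ABCG1KO libraries, LysM-DKO 1 had the same pattern (0.0485 and 81.6 CPM), and all WT libraries had Xist at 79.05 CPM or more and Ddx3y at 0.0276 or less. Sex and genotype thus differ together between ABCG1KO and WT. All 8 macrophage markers were detected in every group, and their summed level was 18040 to 21160 CPM in WT, 10990 to 13060 in LysM-DKO and 18390 to 22240 in ABCG1KO. Without Lyz2 the other 7 summed to 5039 to 5540 CPM in WT, 4815 to 5381 in LysM-DKO, and 7832 and 7154 in ABCG1KO. These 7 did not move together. Cd68 was 2125 to 2662 CPM in WT and 917 and 1369 in ABCG1KO. Csf1r, Adgre1, Itgam and Cd14 were above WT in both ABCG1KO libraries, and Mertk and Fcgr1 overlapped WT.

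Cdkn1c was the CDK inhibitor with the highest transcript level in WT macrophages, and its level separated the 3 groups. It measured 460.4, 366 and 297 CPM in WT 1, 2 and 3, then 118, 96.1 and 84.6 CPM in the LysM-DKO libraries, and 13.2 and 14.9 CPM in the ABCG1KO libraries. Every LysM-DKO library lay below every WT library, and both ABCG1KO libraries lay below every LysM-DKO library. These levels rest on 11479 to 15707 counts per library in WT, 3385 to 4862 in LysM-DKO, and 420 and 631 in ABCG1KO. The gene ranked between 305 and 525 among all symbols by count in WT, between 1673 and 2294 in LysM-DKO, and 7665 and 7369 in ABCG1KO.

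The group means were 375 ± 82.0 CPM in WT (SD, n = 3), 99.5 ± 16.9 in LysM-DKO (SD, n = 3) and 14.0 ± 1.21 in ABCG1KO (SD, n = 2). LysM-DKO held 26.6% of the WT level, a fitted log2 fold change of -1.91 (SE 0.20), which is the value that chose the gene. The difference between LysM-DKO and ABCG1KO was 7.09-fold, a log2 fold change of 2.83 (SE 0.24), also given as a description. In bulk RNA, fewer expressing cells and less RNA per cell cannot be told apart.

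Against WT, Cdkn1c fell 26.7-fold in ABCG1KO, to 3.75% of the WT level, a log2 fold change of -4.74 (SE 0.27, Benjamini-Hochberg adjusted p = 3.11e-05 over 13821 genes in the edgeR quasi-likelihood test). In that comparison 16% of all tested genes were called (7.21% higher and 8.83% lower), and Cdkn1c had rank 32 by p. The comparison shares its WT libraries with the one that chose the gene. The call held in all 18 alternative settings, between -5.12 and -4.50 on the log2 scale. The value of -5.12 came from the fit with the sex-linked pattern as a term, which is estimated within LysM-DKO alone, from library 1 against libraries 2 and 3, whose Cdkn1c values were used to choose the gene. The part of sex in the fall was not tested. Of 13821 genes, 2 (0.0145%) were called lower in both knockouts against WT, 1 of them Cdkn1c, a count that describes the choice of the gene.

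**Figure D1:**
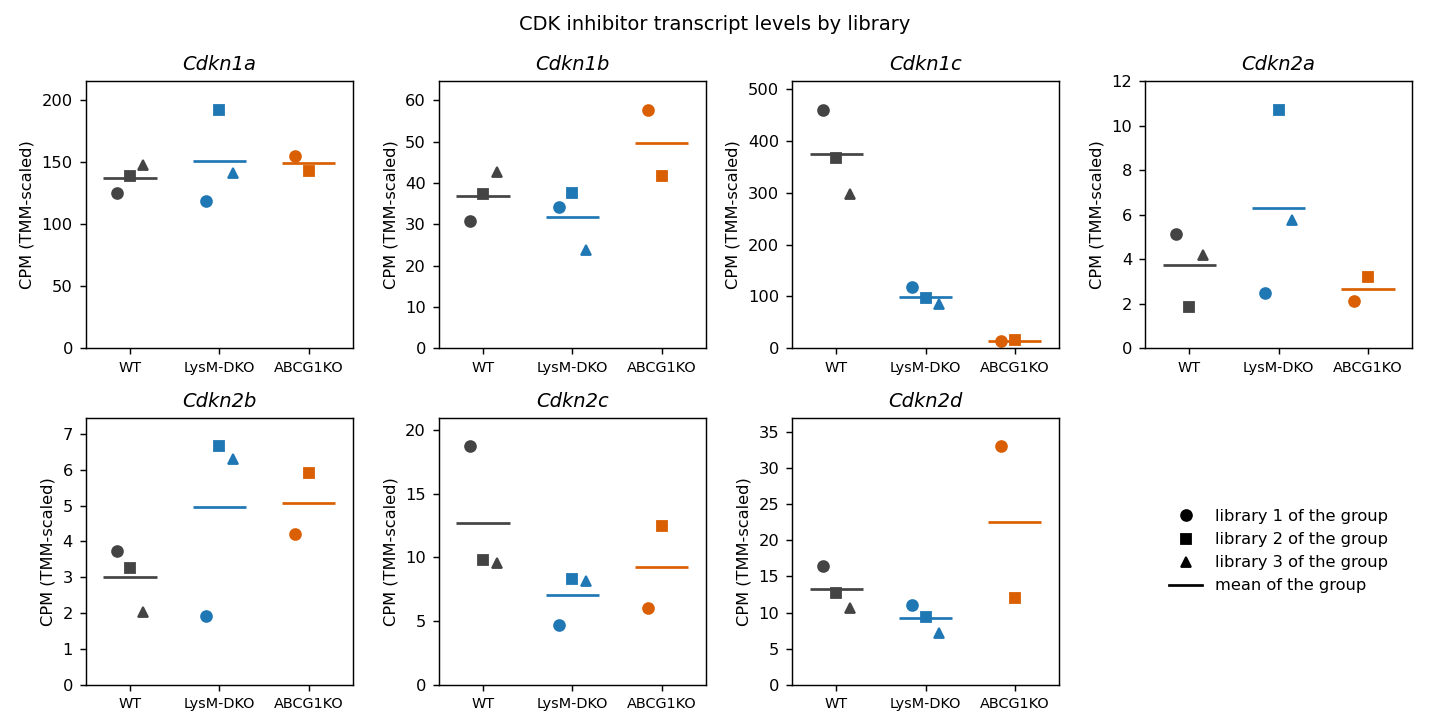
TMM-scaled CPM (vertical axes, from 0, a scale of its own per gene) of the 7 CDK inhibitor genes in the WT, LysM-DKO and ABCG1KO libraries (horizontal axes), with a symbol per library and a line at each group mean. Cdkn1c steps down from 297 to 460.4 CPM in WT to 13.2 and 14.9 CPM in ABCG1KO, and none of the other 6 genes has such a step.

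Fibroblasts and other stromal cells are known to express Cdkn1c, so their markers were measured beside it. The summed level of 6 fibroblast markers (Col1a1, Col1a2, Col3a1, Pdgfra, Dcn and Lum) was 755 to 913 CPM in WT and 678 to 1663 in LysM-DKO. In ABCG1KO it was 160.0 CPM in library 1 and 1185 in library 2, while Cdkn1c was 13.2 and 14.9 CPM in the same libraries. LysM-DKO 3, with the highest fibroblast sum of all libraries (1663 CPM), held 84.6 CPM of Cdkn1c. These are single libraries, and the part of fibroblasts in their Cdkn1c was not tested. Of 5 endothelial markers, the sum was 13.5 to 19.2 CPM in WT, 18.2 to 24.6 in LysM-DKO and 6.84 and 9.10 in ABCG1KO, with Tek and Emcn at 0 in all WT libraries. These markers did not move together: Kdr was 13.0 to 18.3 CPM in WT and 0.909 and 0.566 in ABCG1KO, whereas Pecam1 was 0.381 to 2.73 and then 5.43 and 7.74. The 5 mesothelial markers summed to 7.61 to 43.9 CPM in WT, 5.38 to 58.0 in LysM-DKO, and 6.15 and 23.1 in ABCG1KO. The 7 markers of mast cells summed to 9.08 and 52.8 CPM in ABCG1KO, above the 0.233 to 5.36 CPM in WT, with 0.194 to 0.731 in LysM-DKO. The sum of the 5 eosinophil markers was lower in both knockouts. It was 14.7 to 30.02 CPM in WT, 3.14 to 13.9 in LysM-DKO, and 3.98 and 7.36 in ABCG1KO. Nearly all of that sum was Siglecf (13.0 to 29.6 CPM in WT), and Ear6 was at 0 in every library. The sum of the 6 dendritic cell markers was higher in ABCG1KO, at 12.5 and 12.8 CPM. It was 1.61 to 8.64 CPM in WT and 1.31 to 3.00 in LysM-DKO. Not all of these markers rose: Cd209a was 0.285 to 1.08 CPM in WT and 5.21 and 9.55 in ABCG1KO. Clec9a went the other way, at 0.674 to 5.96 CPM in WT and 0.314 and 0.212 in ABCG1KO. Markers of B cells (7 genes, at most 33.2 CPM), of T and NK cells (7 genes, at most 4.28 CPM, Ncr1 at 0 in every library) and of neutrophils (7 genes, at most 6.08 CPM, Retnlg at 0 in every library) were low throughout, and their WT and ABCG1KO ranges overlapped. The part of such cells in the Cdkn1c levels was not tested.

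Cdkn1a, which encodes p21, the inhibitor induced by p53, was the most abundant other member and differed little between groups. It measured 125, 139 and 148 CPM in WT, 119, 193 and 141 in LysM-DKO, and 156 and 143 in ABCG1KO. LysM-DKO held both the lowest (library 1) and the highest (library 2) value of the 8 libraries. The log2 fold change was 0.14 in LysM-DKO against WT (95% interval -0.28 to 0.55) and 0.12 in ABCG1KO against WT (-0.34 to 0.59). Neither passed the edgeR quasi-likelihood test (Benjamini-Hochberg adjusted p = 0.787 and 0.723).

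Cdkn1b encodes p27, which holds quiescent cells out of the cycle and is controlled largely through protein degradation. It measured 30.8, 37.4 and 42.7 CPM in WT, 34.1, 37.6 and 23.7 in LysM-DKO, and 57.8 and 41.6 in ABCG1KO. The ABCG1KO libraries lay above every LysM-DKO library, but one of them lay within the WT range. Its log2 fold change was -0.22 in LysM-DKO against WT (95% interval -0.71 to 0.28) and 0.43 in ABCG1KO against WT (-0.12 to 0.97). The edgeR quasi-likelihood test called neither difference, with Benjamini-Hochberg adjusted p = 0.702 and 0.262.

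The INK4 genes were far lower than Cdkn1c in WT, and Cdkn2c was the only one of them whose WT and LysM-DKO libraries did not overlap. Cdkn2c encodes p18, an inhibitor of CDK4 and CDK6. Its level was 18.7, 9.80 and 9.58 CPM in WT, 4.65, 8.29 and 8.15 in LysM-DKO, and 6.05 and 12.5 in ABCG1KO. WT 1 stood well above the other WT libraries, and the ABCG1KO libraries lay on both sides of the lower WT values. In LysM-DKO against WT the log2 fold change was -0.85 (95% interval -1.75 to 0.05), which missed the edgeR quasi-likelihood threshold (Benjamini-Hochberg adjusted p = 0.443). Over all tested genes, 21% had WT and LysM-DKO libraries that did not overlap. Of the 6 members other than Cdkn1c, only Cdkn2c did so. Cdkn1c is left out of this count because it was chosen for its fall in LysM-DKO.

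Cdkn2d encodes p19, the INK4 member found in most tissues, and should not be confused with the Arf product of Cdkn2a. It measured 16.4, 12.7 and 10.6 CPM in WT, 11.1, 9.43 and 7.17 in LysM-DKO, and 33.0 and 12.0 in ABCG1KO. The high level in ABCG1KO was that of library 1, since library 2 lay inside the WT range. Against WT the log2 fold change was -0.52 in LysM-DKO (95% interval -1.36 to 0.32) and 0.76 in ABCG1KO (-0.16 to 1.69), and the edgeR quasi-likelihood test called neither (Benjamini-Hochberg adjusted p = 0.58 and 0.235). Without ABCG1KO 2 the second value became 1.31 and was called (adjusted p = 0.0342, same test), and without ABCG1KO 1 it turned to -0.15.

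Cdkn2a and Cdkn2b, which lie 11646 bases apart on chromosome 4 and are known for rising in senescent cells, were the lowest members. Cdkn2a measured 5.13, 1.85 and 4.17 CPM in WT, 2.47, 10.7 and 5.75 in LysM-DKO, and 2.13 and 3.21 in ABCG1KO. Cdkn2b measured 3.72, 3.26 and 2.05 CPM in WT, 1.91, 6.65 and 6.30 in LysM-DKO, and 4.20 and 5.92 in ABCG1KO. LysM-DKO 2 and 3 were above all WT libraries for both genes while LysM-DKO 1 was not, and for Cdkn2b both ABCG1KO libraries lay above WT. The edgeR quasi-likelihood test called none of the 4 differences from WT. The log2 fold changes in LysM-DKO were 0.77 (SE 0.57, adjusted p = 0.599) for Cdkn2a and 0.72 (SE 0.49, adjusted p = 0.571) for Cdkn2b, and in ABCG1KO -0.47 (SE 0.65, adjusted p = 0.659) and 0.75 (SE 0.54, adjusted p = 0.38). Mtap, the metabolic gene next to the locus, had a log2 fold change of 0.26 in LysM-DKO against WT and was not called (adjusted p = 0.683).

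Besides Cdkn1c, the family showed no called change in either knockout against WT. For LysM-DKO against WT, 0 of the other 6 members were called by the edgeR quasi-likelihood test at a Benjamini-Hochberg adjusted p under 0.05, 0 had an unadjusted p under 0.05, and DESeq2 called 0. The background is low as well, since 0.0362% of all tested genes (5 of 13821) were called in that comparison, and 0 of 6 lies near it. An unadjusted p under 0.05 was found for 1611 of the 13821. For ABCG1KO against WT the 3 counts were again 0, where 16% of all tested genes were called by edgeR. Of the 6 members other than Cdkn1c, only Cdkn2b had ABCG1KO and WT libraries that did not overlap, against 48.2% of all tested genes. Those of Cdkn1c did not overlap either, with the WT libraries on which the gene was chosen.

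Between the knockouts, LysM-DKO was lower than ABCG1KO for Cdkn1b and Cdkn2d in every library. The log2 fold changes were -0.64 (SE 0.24) for Cdkn1b and -1.28 (SE 0.40) for Cdkn2d, with Benjamini-Hochberg adjusted p = 0.112 and 0.0708 in the edgeR quasi-likelihood test. Of the 6 members other than Cdkn1c, edgeR called 0, where 13.4% of all tested genes were called. An unadjusted p under 0.05 was found for 2 of them, against 4267 of all 13821 tested genes. DESeq2 called 1, Cdkn2d (log2 fold change -1.31, adjusted p = 0.017). Cdkn2d was also called by edgeR without ABCG1KO 2 (-1.83, adjusted p = 0.0104). Of these 6 members, Cdkn1b and Cdkn2d had libraries that did not overlap between the knockouts, against 48.2% of all tested genes. Those of Cdkn1c did not overlap either, which is a description. Both knockouts were compared with the same WT libraries, so their differences from WT are not independent of each other.

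**Figure D2:**
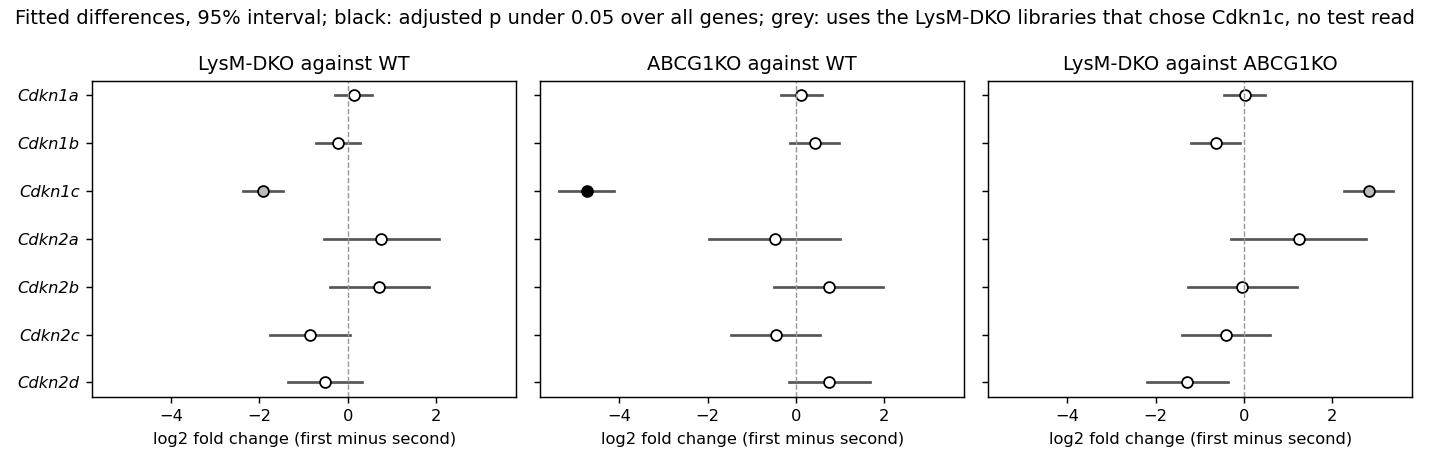
Fitted log2 fold change (horizontal axes, first group minus second) with its 95% interval for the 7 genes in the 3 comparisons. The interval of Cdkn1c in ABCG1KO against WT runs from -5.36 to -4.12 and is the one marked in black as called. The 2 grey points of Cdkn1c, -1.91 and 2.83, use the LysM-DKO libraries on which the gene was chosen and are read without a test, and the other 18 points are not called.

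To compare members with each other, CPM was divided by exon length in kilobases, which gives a level per length. In WT, Cdkn1c stood at 184 ± 40.2 CPM per kb and Cdkn1a at 38.7 ± 3.20 (SD, n = 3 each). Then came Cdkn2d at 8.41 ± 1.89, Cdkn1b at 8.12 ± 1.3, Cdkn2c at 4.73 ± 1.94, Cdkn2a at 3.17 ± 1.44 and Cdkn2b at 2.16 ± 0.623 CPM per kb. Each of these last 5 overlapped its neighbour in that order, while Cdkn1c and Cdkn1a stood clear. In LysM-DKO, Cdkn1c at 48.8 ± 8.27 and Cdkn1a at 42.5 ± 10.6 CPM per kb (SD, n = 3 each) overlapped. In ABCG1KO the order was Cdkn1a at 42.1, Cdkn2d at 14.3, Cdkn1b at 10.9, Cdkn1c at 6.88, Cdkn2b at 3.64, Cdkn2c at 3.45 and Cdkn2a at 2.28 CPM per kb (means, n = 2).

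The make-up of the family shifted accordingly. The summed level of all 7 genes per length was 292, 243 and 212 CPM per kb in WT, 111, 133 and 104 in LysM-DKO, and 91.0 and 76.0 in ABCG1KO. Cdkn1c held 77.3%, 74.0% and 68.8% of that sum in WT, 52.0%, 35.5% and 40.1% in LysM-DKO, and 7.10% and 9.60% in ABCG1KO. Without Cdkn1c the remaining 6 genes summed to 63.1 to 66.5 CPM per kb in WT, 53.3 to 85.5 in LysM-DKO, and 84.5 and 68.7 in ABCG1KO. The fall of the family's sum thus lay in Cdkn1c, while the sum of the others in LysM-DKO spanned the WT values and in ABCG1KO lay above them. The INK4 genes together made up 6.45% to 8.37% of the family per length in WT, 11.03% to 17.4% in LysM-DKO, and 30.8% and 25.3% in ABCG1KO. Their own sum was 15.3 to 24.46 CPM per kb in WT, 12.25 to 23.02 in LysM-DKO, and 28.05 and 19.24 in ABCG1KO. The sums and shares of the family in LysM-DKO contain the fall of Cdkn1c that chose the gene.

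**Figure D3:**
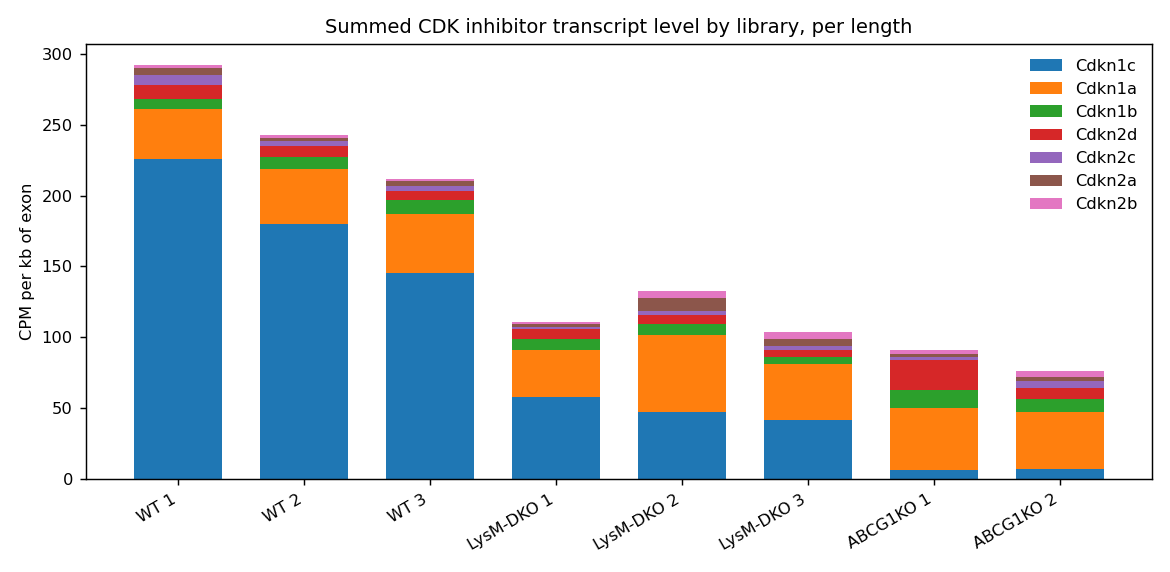
Stacked bars of CPM per kb of exon (vertical axis, from 0) for the 7 CDK inhibitor genes in each of the 8 libraries (horizontal axis). The Cdkn1c segment shrinks from 68.8% to 77.3% of the bar in WT to 7.10% and 9.60% in ABCG1KO, and the segments of the other 6 genes together stay between 53.3 and 85.5 CPM per kb.

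The sequence and position of the members bear on how far their counts can be read. The genes lie on chromosomes 17 (Cdkn1a), 6 (Cdkn1b), 7 (Cdkn1c, 143458339 to 143461050, minus strand, GRCm38), 4 (Cdkn2a, Cdkn2b, Cdkn2c) and 9 (Cdkn2d). In 6 of the 7, no 50-base stretch of the transcripts recurs in a gene at another locus, and in Cdkn1a 2.14% do. An antisense gene, Gm44732, covers 625 exonic bases of Cdkn1c (30.7%), and without a stated strand setting reads from both strands cannot be told apart there.

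The genes around Cdkn1c on chromosome 7 were read next, because the domain is controlled together by imprinting. Kcnq1ot1, the noncoding RNA that represses the domain on the paternal chromosome, was higher in ABCG1KO. It measured 0.704, 1.02 and 0.725 CPM in WT (24, 37 and 28 counts), 2.04, 1.63 and 1.18 in LysM-DKO, and 9.22 and 4.53 in ABCG1KO (294 and 192 counts). All 3 LysM-DKO libraries lay above WT, and both ABCG1KO libraries lay above LysM-DKO. Kcnq1ot1 rose in ABCG1KO against WT by 3.07 on the log2 scale (SE 0.47, edgeR quasi-likelihood test, Benjamini-Hochberg adjusted p = 0.00493), a call that was lost with the sex-linked pattern as a term (2.53, adjusted p = 0.147). The same test did not call its log2 fold change of 0.98 (SE 0.42) in LysM-DKO against WT (adjusted p = 0.427). Kcnq1ot1 lies within Kcnq1 on the opposite strand, and reads outside genes were also more frequent in the ABCG1KO libraries, as given above; their part in the rise was not tested.

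Kcnq1, a potassium channel gene of the same domain, had a different order: 2.81, 3.31 and 1.99 CPM in WT, 0.703, 0.512 and 1.00 in LysM-DKO, and 3.14 and 4.53 in ABCG1KO. Every LysM-DKO library lay below every other library. The log2 fold change of Kcnq1 in LysM-DKO against WT was -1.87 (SE 0.43), close to that of Cdkn1c, but it was not called by the edgeR quasi-likelihood test (Benjamini-Hochberg adjusted p = 0.27), while DESeq2 called it (-1.90, adjusted p = 0.00203).

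Slc22a18, a transporter gene imprinted with Cdkn1c, fell in ABCG1KO, from 4.25, 5.19 and 5.02 CPM in WT to 1.16 and 1.77. Its log2 fold change was -1.71 (edgeR quasi-likelihood test, Benjamini-Hochberg adjusted p = 0.024). Tnfrsf22, a decoy receptor gene, fell by 1.72 (adjusted p = 0.0445, same test), although 27.4% of its sequence recurs in other genes. Nap1l4, a histone chaperone gene at the edge of the domain, rose from 92.3, 73.0 and 86.5 CPM in WT to 128 and 127, by 0.60 on the log2 scale (adjusted p = 0.0347, same test). The values in LysM-DKO against WT were -0.30 for Slc22a18 and -0.01 for Nap1l4, both not called (adjusted p = 0.735 and 0.991, same test), the latter with a sign that differed between scalings. The fifth call was Ascl2, a transcription factor gene of the domain, named after its values were seen, at 60 and 38 counts in ABCG1KO and at most 3 counts in every other library.

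In all, 3 of the 11 tested genes of the domain rose and 2 fell in ABCG1KO against WT, where 16% of all tested genes were called. Ascl2 is among those that rose. It passed the count filter through the ABCG1KO libraries alone, so it could enter this count only as a rise. For LysM-DKO against WT, edgeR called 0 of 11, 2 had an unadjusted p under 0.05, and DESeq2 called 1. The calls of Slc22a18, Nap1l4 and Tnfrsf22 were lost without single libraries. Slc22a18 was not called without WT 2 (-1.66), WT 3 (-1.68) or ABCG1KO 1 (-1.45). Nap1l4 was not called without WT 2 (0.51), WT 3 (0.63), LysM-DKO 1 (0.61), ABCG1KO 1 (0.59) or ABCG1KO 2 (0.60), and Tnfrsf22 was not called without any one library other than ABCG1KO 2 (-1.16 without ABCG1KO 1).

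**Figure D4:**
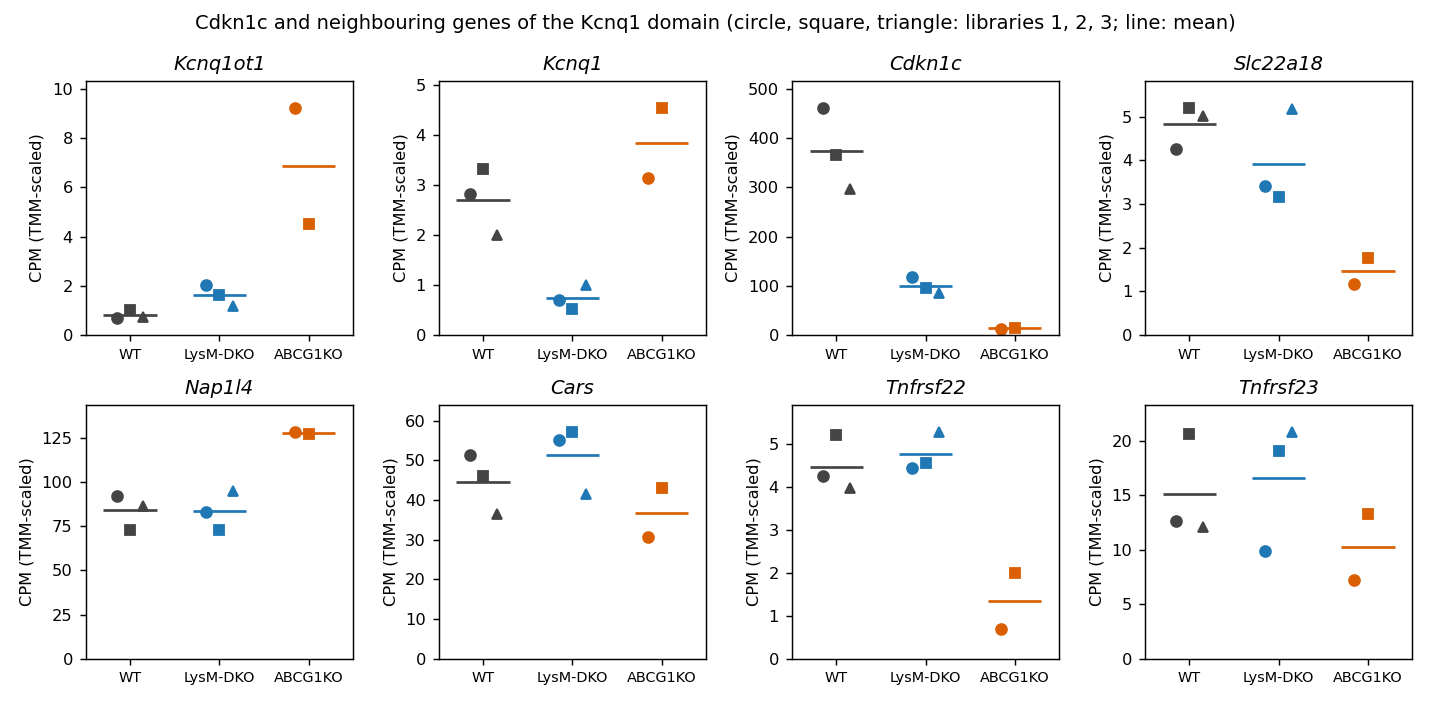
TMM-scaled CPM (vertical axes, from 0) of Cdkn1c and 7 genes around it on chromosome 7 in the WT, LysM-DKO and ABCG1KO libraries (horizontal axes), with a symbol per library and a line at each group mean. Kcnq1ot1 is highest in ABCG1KO (9.22 and 4.53 CPM) where Cdkn1c is lowest (13.2 and 14.9 CPM), and Kcnq1 is lowest in LysM-DKO (0.512 to 1.00 CPM).

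Among 17 tested imprinted genes outside the domain, 1 rose and 1 fell in ABCG1KO against WT, where 16% of all tested genes were called. Gnas, which encodes a G-protein subunit and is imprinted in some tissues, fell from 1059 to 1239 CPM in WT to 571 and 683, a log2 fold change of -0.91 (edgeR quasi-likelihood test, Benjamini-Hochberg adjusted p = 0.016). Without ABCG1KO 1 it was -0.79 and not called. Its value in LysM-DKO was -0.49 against WT and not called (adjusted p = 0.354, same test). Calls in ABCG1KO against WT thus went in both directions on both lists. In the domain, Kcnq1ot1, the repressor RNA, Nap1l4, at its edge, and Ascl2 rose, while Slc22a18 and Tnfrsf22 fell. Whether imprinting moved these genes together was not tested.

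The 12 lists of genes that regulate or follow the CDK inhibitors held 171 tested genes once the members were set aside. In LysM-DKO against WT, 0 of 171 were called by the edgeR quasi-likelihood test, 22 had an unadjusted p under 0.05 and DESeq2 called 3. Over all 13821 tested genes, 1611 had an unadjusted p under 0.05 in that comparison. In ABCG1KO against WT, 18 rose and 11 fell, 17% of the 171, near the 16% of all tested genes. With the sex-linked pattern as a term, estimated from LysM-DKO 1 against 2 and 3 alone, 488 of all tested genes were called in ABCG1KO against WT, and of the list genes described as called in this comparison, Ltbp3 was the one still called. Between LysM-DKO and ABCG1KO 18 were called, 10.5% against 13.4% of all tested genes.

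Genes downstream of the inhibitors did not show a called shift in LysM-DKO. Of 26 replication and mitosis genes, 22 had a log2 fold change below 0 in LysM-DKO against WT, with a median of -0.76 (0.02 over all tested genes), and 0 were called by edgeR, 2 had an unadjusted p under 0.05 and DESeq2 called 0. In ABCG1KO against WT the same genes had a median of 0.38 (0.01 over all tested genes), with 1 higher and 1 lower call. In that comparison 16% of all tested genes were called. Pcna, the sliding clamp of DNA polymerase, measured 453, 306 and 203 CPM in WT and 234, 140.0 and 326 in LysM-DKO, and the groups overlapped. Of the 15 cyclin and CDK genes, the targets of the inhibitors, 0 were called in either knockout against WT; 3 in LysM-DKO and 1 in ABCG1KO had an unadjusted p under 0.05, and DESeq2 called 1 in each. Cdk4 itself measured 93.8 to 145 CPM in WT, 90.4 to 116 in LysM-DKO, and 129 and 127 in ABCG1KO. Ccnd1, encoding cyclin D1, the partner of CDK4, ranged from 15.2 to 45.4 CPM in WT, 22.8 to 85.5 in LysM-DKO, and stood at 19.8 and 64.5 in ABCG1KO. Of 19 pocket protein, E2F and DREAM genes, 1 rose and 2 fell in ABCG1KO, and Rbl1, encoding the pocket protein p107, fell by 0.65 on the log2 scale (edgeR quasi-likelihood test, Benjamini-Hochberg adjusted p = 0.0173). Rbl1 was not called without WT 2 (-0.64), ABCG1KO 1 (-0.69) or ABCG1KO 2 (-0.64), or when scaled by library size only (-0.42).

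Of 21 genes of the p53 axis, which drives Cdkn1a, 3 rose and 2 fell in ABCG1KO against WT and 16 were not called, where 16% of all tested genes were called. Their median on the log2 scale was 0.44, and 0.01 over all tested genes. Fas, a death receptor, measured 4.75, 6.19 and 4.32 CPM in WT and 29.7 and 13.8 in ABCG1KO, a log2 fold change of 2.10 (edgeR quasi-likelihood test, Benjamini-Hochberg adjusted p = 0.00883). Bax, which promotes apoptosis, rose by 0.83 (adjusted p = 0.0131), and Plk2, a kinase induced by p53, fell by 1.70 (adjusted p = 0.0193), in the same test. Without ABCG1KO 1 none of these 3 was called (Fas 1.43, Bax 0.63, Plk2 -1.33), and Bax (0.76) and Plk2 (-1.46) were not called without WT 2 either. In LysM-DKO, 0 of 21 were called against WT by edgeR, 2 had an unadjusted p under 0.05 and DESeq2 called 0, with Ccng1, a cyclin-like p53 target, at 0.17 and Plk2 at -0.29 on the log2 scale.

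TGF-beta is a known inducer of Cdkn1c, Cdkn2b and Cdkn1a. Of 12 genes of its signalling, 4 rose and 1 fell in ABCG1KO against WT, where 16% of all tested genes were called. Smad3, a transcription factor of the pathway, measured 23.1, 29.2 and 16.5 CPM in WT and 97.4 and 59.3 in ABCG1KO, a log2 fold change of 1.77 (edgeR quasi-likelihood test, Benjamini-Hochberg adjusted p = 0.0136), which was not called without ABCG1KO 1 (1.36). Ltbp3, which stores latent TGF-beta in the matrix, fell from 206 to 229 CPM in WT to 96.4 and 92.0, a log2 fold change of -1.18 (adjusted p = 0.000788, same test), and was called in all 17 alternatives that tested it. Its LysM-DKO libraries held 134, 127 and 130 CPM, below every WT library and above both ABCG1KO libraries. That difference from WT was not called by edgeR. In LysM-DKO 0 of 12 were called by edgeR, 5 had an unadjusted p under 0.05 and DESeq2 called 1. Over all tested genes 1611 of 13821 had an unadjusted p under 0.05. Of the 12, 6 had LysM-DKO libraries all above WT and 1 all below, where 21% of all tested genes did not overlap. Tgfbr2, the type II receptor, measured 215 to 302 CPM in WT and 328 to 570 in LysM-DKO without overlap, a log2 fold change of 0.73 that was not called (adjusted p = 0.354, same test).

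The other lists were read in the same way for ABCG1KO against WT, where 7.21% of all tested genes were called higher and 8.83% lower. For the turnover of Kip proteins 1 of 11 fell, Rbx1, a ubiquitin ligase subunit, by 0.69 on the log2 scale (edgeR quasi-likelihood test, Benjamini-Hochberg adjusted p = 0.0179). Rbx1 was not called without ABCG1KO 2 (-0.58) or when scaled by library size only (-0.45). For regulators of the Ink4 locus 3 of 16 rose, for FoxO factors and targets 1 of 11 rose, and for glucocorticoid-responsive genes 1 rose and 1 fell of 11. On the list of the Ink4 locus and its neighbours 0 of 3 tested genes were called. They are Mtap and the members Cdkn2a and Cdkn2b, so Mtap was the only tested gene there outside the family. In LysM-DKO against WT 0 genes of these 5 lists were called by edgeR or by DESeq2, and 2, 2, 0, 1 and 0 had an unadjusted p under 0.05.

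The genes whose pattern over the 8 libraries was most like that of Cdkn1c, among 9831 genes with a mean of at least 5 CPM, were Aph1a (Pearson r = 0.993 of log2 CPM), Capn1 (0.991), Myadm (0.989), Rab19 (0.985) and Tmsb10 (0.983). These 8 points share their group structure, with low ABCG1KO libraries, and within the 6 WT and LysM-DKO libraries the values were 0.93 to 0.975. Those 6 still hold the difference that chose Cdkn1c, and the genes were ranked on an r that includes them. The sizes of the falls differed: the group mean went from 94.4 CPM in WT to 61.4 in ABCG1KO for Aph1a, and from 951 to 63.95 for Tmsb10. Of the sequence of Aph1a 39.5% recurs in other genes, and of that of Tmsb10 27.0%. Cdkn2d was most like Eif4e3 (0.993), and Cdkn1b most like Ctdsp2 (0.978), Ccng2 (0.976) and Hars2 (0.970). For Cdkn2c the nearest was Kif20b (0.950), for Cdkn2b Nxn (0.949), for Cdkn2a Armc6 (0.940) and for Cdkn1a Naprt (0.916). Between members, Cdkn1c had r = -0.30 with Cdkn1a and -0.48 with Cdkn1b over the same 8 libraries.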

How the data were processed

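The deposited values were whole-number counts per gene symbol from 8 libraries, made with htseq-count, as the counter lines that end each file show. Per the submitters' processing notes, STAR 2.7.9a, TopHat, HTSeq 0.11.2, DESeq2 1.30.1, limma and the build mm10 were used, with no role or order stated. Strand setting and annotation are not given in the sources used here. The special counter lines stayed out of library sizes and tests.

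The unaltered counts entered edgeR 4.0.16 (R 4.3.3): filterByExpr by group (13821 genes kept), TMM factors, 1 robust quasi-likelihood fit over all 3 groups without covariates (5 residual degrees of freedom), and calls at a Benjamini-Hochberg adjusted p under 0.05. CPM are counts per 1000000 of the TMM-scaled library size. DESeq2 1.42.0 was an alternative, beside other scalings, count filters, fits of only 2 groups, a replicate block and leaving out each library. A sex-linked term, a fit without robust prior and a fit of genes with under 1% shared sequence were added after the data had been seen. The fit was tested on simulated data.

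Exon lengths and 50-base words came from GENCODE vM21 (GRCm38), where 23330 of 24421 symbols matched 1 gene. Members and gene lists were chosen with earlier results of these data known. All members are named. From each list, up to 4 called genes by p could be named, or, with fewer than 2 called, the 2 most abundant; only some of these are given, picked with their values known. Tnfrsf22, Ascl2, and Kcnq1ot1, Kcnq1, Slc22a18 and Ltbp3 in LysM-DKO were named after their values were seen. All library pairs within a group differed by more than sampling noise (chi-square per degree of freedom of 92.9 or more). Depth was 29567615 to 41888516 counts in genes, and the group means of Cdkn2a and Cdkn2b, the lowest members, were 102 to 257 counts. Counting limits cover counting error only. A further marker list and some genes most like a member are not reported here, and neither are all genes of the lists.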

Additional observations from a re-analysis of the deposited data

How the results depend on the processing

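The direction of Cdkn1c held in all 18 alternatives of each comparison. In both comparisons with LysM-DKO its calls show the effect of settings only. They are not read as a test, since the fall of Cdkn1c in LysM-DKO chose the gene. In LysM-DKO against WT its fall ranged from -2.07 to -1.74 on the log2 scale, but the edgeR call was lost in 8 of 18, so that the number of CDK inhibitors called there, 1, became 0 under the replicate block and 0 with the sex-linked term, and 0 to 1 without single libraries (0 without WT 1, WT 2, any LysM-DKO library or ABCG1KO 2). In ABCG1KO against WT the members called were 1 to 2 without single libraries, and between the knockouts 1 to 2, and 2 with DESeq2.

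The number of genes called in LysM-DKO against WT, 5, was 3 with at least 10 counts in every library, 279 with DESeq2, 8 with only the 2 groups compared, 0 under the replicate block, 3 without the robust prior, 2 with the sex-linked term, 3 among genes with under 1% shared sequence, and 0 to 8 without single libraries (0 without WT 2, LysM-DKO 2 or LysM-DKO 3). In ABCG1KO against WT, 2216 calls became 537 under the replicate block, 488 with the sex-linked term, 823 among genes with little shared sequence, and 853 to 2090 without single libraries. Between the knockouts, 1853 became 2952 with DESeq2, 948 with only the 2 groups, 168 under the block, 719 with the sex-linked term, 615 with little shared sequence, and 561 to 1960 without single libraries. The lowest of both came without ABCG1KO 1. Without WT 1, 2 or 3 the calls in ABCG1KO against WT were 1372, 1186 and 1318, and between the knockouts they were 943 without LysM-DKO 1 and 1005 without LysM-DKO 2.

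Over the single genes named and their alternatives, 694 values kept direction and call, 62 lost a call, 4 gained one and 21 changed sign. Cdkn1a between the knockouts (0.01) was -0.016 with RLE factors, -0.061 with library size only, -0.002 with at least 10 counts, -0.01 with DESeq2, -0.018 under the block, -0.33 with the sex-linked term and -0.22 to 0.14 without single libraries. In LysM-DKO against WT, Cdkn1a was -0.091 (without LysM-DKO 2) to 0.266 (without LysM-DKO 1), and Nap1l4 was 0.145 with library size only and -0.123 to 0.068 without single libraries. With the sex-linked term, which rests on LysM-DKO 1 alone, ABCG1KO against WT was 1.26 for Cdkn2a, 0.37 for Cdkn2c, 2.51 for Cdkn2b (0.75 without the term) and 0.61 for Cdkn1a (0.12), and the value between the knockouts was -0.11 for Cdkn2a and -1.40 for Cdkn2b (-0.03), none of them called. Between the knockouts, leaving out single libraries gave -0.324 to 0.331 for Cdkn2b (above 0 without LysM-DKO 1, and 0.243 without ABCG1KO 2) and -0.839 to 0.221 for Cdkn2c (above 0 without ABCG1KO 2). Cdkn2d in ABCG1KO against WT was -0.153 without ABCG1KO 1 and 1.31 without ABCG1KO 2. The cause of these changes was not tested. With library size only, the median over all tested genes stood at 0.17 on the log2 scale in LysM-DKO and 0.25 in ABCG1KO against WT, and with TMM 0.02 and 0.01. Replicate numbers did not pair the libraries: same-numbered deviations of WT and LysM-DKO correlated at 0.041, 0.426 and -0.014, and not every library correlated best with its own number. The replicate block with ABCG1KO used replicates 1 and 2 only. Depth limits Cdkn2a and Cdkn2b most, with group means of 102 to 257 counts.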
